A study of Homo sapiens with 28 samples.

Results

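ARID1B Block9del is a form of the chromatin remodelling subunit ARID1B that lacks a segment the submitters call Block9, and it was compared with the empty vector control in AN3CA, an established human endometrial carcinoma cell line. The libraries were chosen by their labels: 2 of Block9del (replicates 1 and 2) and 4 of empty vector (replicates 1 to 4), 6 of 28 libraries in all. The groups read beside them were 2 libraries each of full-length ARID1B (ARID1B WT), of the ARID1B deletions Block13del and A457_G461del, and of the ARID1A constructs AQGscram and 42YS. All libraries were of polyA RNA from AN3CA cells in the same medium with 15% fetal bovine serum and no treatment, and the labels give no promoter, induction, clone or position of Block9. They do not say that replicates were separate cultures, so each p-value reflects library-to-library variation that could be purely technical.

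ARID1A and ARID1B are mutually exclusive large subunits of the canonical BAF complex, the ATP-dependent remodeller that slides and evicts nucleosomes and opens enhancers for transcription factors. Each carries an ARID DNA-binding domain, a C-terminal core-binding region and long disordered stretches, and ARID1A is among the genes most often mutated in endometrial cancer. The series title concerns condensation of this complex by the ARID1A and ARID1B proteins, and Block9del is one of the forms profiled.

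Reads assigned to genes on the counted strand numbered 26.4 and 23.4 M in Block9del and 16.6 to 21.6 M in empty vector, and the share of reads that fell on that strand separated the libraries. It was 96.7 and 97.9% in Block9del, 87.6 and 84.5% in empty vector replicates 1 and 2, and 98.4 and 98.3% in replicates 3 and 4. No empty vector library had the strand profile of Block9del, so construct and library set cannot be told apart in that comparison. Block13del, A457_G461del, AQGscram and 42YS had shares of 96.9 to 97.3%. Replicate 2 of Block9del lay above these and below empty vector replicates 3 and 4. Reads assigned to no gene made up 19.7 and 18.8% in Block9del and 18.0 to 20.0% in those other constructs. They made up 24.5 and 28.5% in empty vector replicates 1 and 2, and 13.6 and 13.3% in replicates 3 and 4. Results were therefore read against the 4 empty vector libraries and against each pair alone. Levels are given as CPM, counts scaled to TMM-adjusted totals of reads in the tested genes. The marker levels in this paragraph are instead scaled to the plain total of reads in all genes. The endometrial epithelial label had partial support: of 14 markers, KRT18, HOXA10 and HOXA11 were above 5 CPM in all 6 libraries, EPCAM, KRT8 and CDH1 were below 1 CPM in each, and SOX17, ESR1, PGR and FOXA2 had no read. The fibroblast markers summed to 2342 to 2365 CPM in Block9del and 2112 to 3330 in empty vector, nearly all of it COL1A2, while LUM and FAP had no read. The T and B cell markers summed to at most 0.154 CPM in any of the 6, the endothelial markers to at most 0.325 CPM, and the erythroid markers to 0. The myeloid markers summed to 1.66 to 2.78 CPM. The muscle and stromal markers summed to 5.99 to 7.17 CPM in Block9del and 6.12 to 30.7 in empty vector, most of it ACTA2 (5.19 to 6.57 and 5.14 to 29.6 CPM), and their part in any result was not tested. Reads of a bulk library do not tell fewer cells with a transcript from less transcript per cell.

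Of 14220 genes tested, 2535 were higher and 3016 lower in Block9del than in the 4 empty vector libraries (edgeR quasi-likelihood, Benjamini-Hochberg adjusted p under 0.05), which is 17.8% and 21.2% of genes. Against empty vector replicates 1 and 2 alone, 4334 genes (30.5%) were higher and 4735 (33.3%) lower. Against replicates 3 and 4 alone, 2921 (20.5%) were higher and 3137 (22.1%) lower. A total of 1818 genes (12.8%) were higher and 1764 (12.4%) lower against both pairs, and 87 and 141 of these changed at least 2-fold against each. In the opposite sense, 965 genes were called higher against one pair and lower against the other. The median absolute log2 difference was 0.38 against replicates 1 and 2, 0.24 against replicates 3 and 4, and 0.34 between the empty vector pairs themselves. In what follows, a gene is said to have risen or fallen where the direction held at an adjusted p under 0.05 against both pairs, and a log2 fold change is against all 4 libraries unless a pair is named.

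ARID1B RNA, which the files count without separating the construct from the endogenous gene, was 343 and 344 CPM in the Block9del libraries and 99.6, 104, 88.5 and 100.4 CPM in empty vector. The groups did not overlap, and the log2 fold change was 1.81 ± 0.0740 (SE; edgeR adjusted p = 1.1e-12). It was 888 and 878 CPM in Block13del, 2259.6 and 2213 in A457_G461del and 3438 and 3757 in ARID1B WT. Block9del had the lowest ARID1B RNA of these 4 ARID1B constructs, -3.39 on the log2 scale against WT and -1.36 against Block13del (edgeR adjusted p = 1.9e-15 and 4e-08). Whether this lower level has a part in any difference between Block9del and the other ARID1B forms was not tested. ARID1A, the paralog, was 233 and 241 CPM against 272, 296, 299.6 and 287 in empty vector, a fall of 0.28 on the log2 scale (edgeR adjusted p = 0.015). That call was lost with only the 6 libraries in the fit (edgeR adjusted p = 0.11). The log2 fold change was -0.26 without Block9del replicate 1 and -0.30 without replicate 2. These effect sizes each rest on a single Block9del library and do not show that the call holds. ARID1A was no exception: of 109 named genes called against the 4 libraries, 45 lost the call under at least 1 alternative.

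Of 28 tested BAF subunit genes, 4 rose and 4 fell, with a median log2 fold change of 0.12 beside -0.04 over all genes. Besides ARID1B, the risers were ACTB, the actin of the complex (2964 and 3058 against 2123, 2089, 2109.9 and 2208 CPM), the core scaffold SMARCC1 (0.33) and SS18 (0.36), a subunit of the canonical and non-canonical complexes. The fallers were ARID1A, the alternative ATPase SMARCA2 (35.3 and 31.9 against 53, 49.3, 48.4 and 50.9 CPM, log2 fold change -0.58 ± 0.0649) and the non-canonical subunits GLTSCR1 (-0.40) and GLTSCR1L (-0.46). The shares called, 4 of 28 in each direction, are near the 12.8% and 12.4% of all genes.

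**Figure D1:**
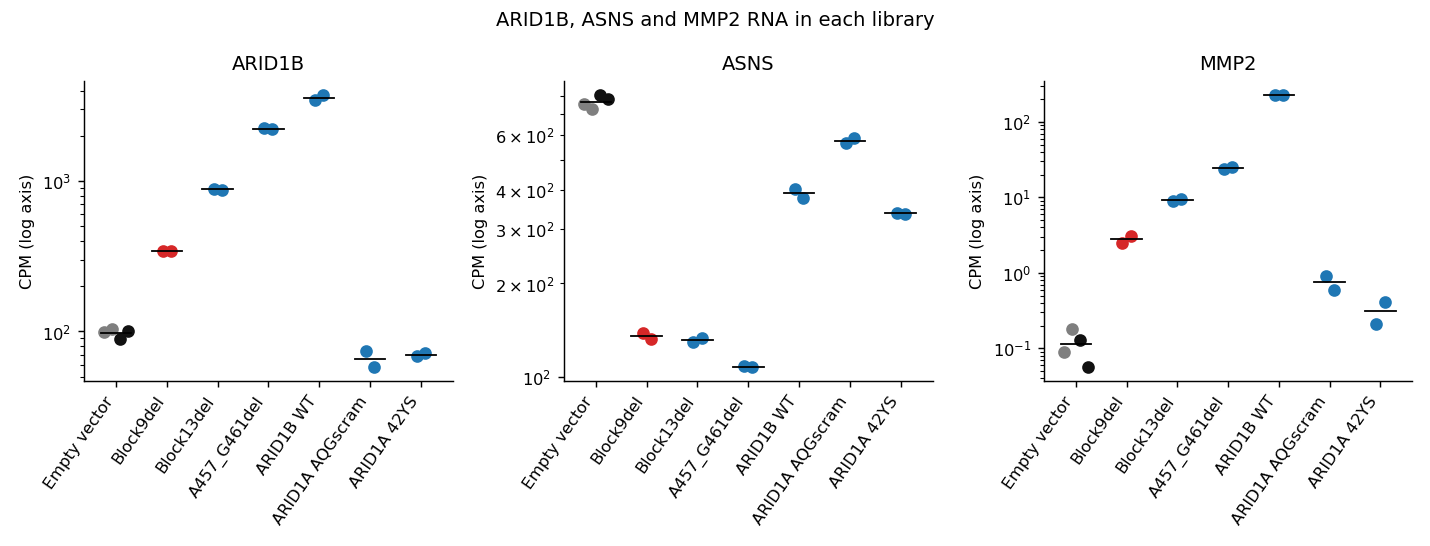
CPM on a log axis of ARID1B, ASNS (asparagine synthetase) and MMP2 (a matrix protease) in each library of 7 groups; points are libraries, grey for empty vector replicates 1 and 2, black for replicates 3 and 4, red for Block9del, and lines are group means. Block9del lies at 343 and 344 CPM for ARID1B, 138 and 133 for ASNS and 2.48 and 3.09 for MMP2.

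ATF4 is a transcription factor whose protein is made when cells run short of amino acids or when misfolded protein builds up in the endoplasmic reticulum. It switches on amino acid synthesis and transport, and it binds, often with a C/EBP partner, a composite site known as the C/EBP-ATF response element. In Block9del it was the most uniformly lowered list: 28 of 32 tested members of the list of ATF4 and unfolded protein response genes fell, and 31 were lower against the 4 libraries (edgeR), where 21.2% of genes were. No member was higher, also at an unadjusted p under 0.05 or by DESeq2. The median log2 fold change was -1.25, and -1.32 and -1.23 against the separate pairs, beside -0.03 and 0.00 for all genes. With only the 6 libraries in the fit, 19 members were called against the 4 empty vector libraries and 27 against both pairs.

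Letters of this element occur before the RefSeq start of some of these genes. The letters TGATGNAA, searched on both strands of the 250 bases before the first listed start, occurred in 5 of 27 members with an entry (18.5%) and in 3.19% of 27305 genes; ALDH1L2, NUPR1, PSPH, SHMT2 and SLC7A11 had no entry. The 5 are printed because each fell in Block9del, 5′ to 3′ in the direction of the gene (GRCh38.p14), with the matching letters in capitals. They lie 68 bases before the start in ASNS (chr7:97872409-97872658, minus strand), 209 in CHAC1 (chr15:40953221-40953470, plus strand), 54 in FGF21 (chr19:48755274-48755523, plus strand), 191 in ATF3 (chr1:212565157-212565406, plus strand) and 176 in HERPUD1 (chr16:56931892-56932141, plus strand). A match is a description of the letters, not a measured binding site.
ASNS: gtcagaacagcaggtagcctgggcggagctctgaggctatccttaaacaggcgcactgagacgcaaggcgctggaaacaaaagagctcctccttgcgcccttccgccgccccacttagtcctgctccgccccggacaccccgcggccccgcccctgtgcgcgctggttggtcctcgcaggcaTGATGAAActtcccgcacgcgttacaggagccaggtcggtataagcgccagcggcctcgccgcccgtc
CHAC1: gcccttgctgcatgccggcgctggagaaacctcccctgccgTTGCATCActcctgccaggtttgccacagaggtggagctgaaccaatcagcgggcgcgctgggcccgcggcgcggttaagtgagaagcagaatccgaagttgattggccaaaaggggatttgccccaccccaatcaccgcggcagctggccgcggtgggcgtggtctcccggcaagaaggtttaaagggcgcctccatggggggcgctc
FGF21: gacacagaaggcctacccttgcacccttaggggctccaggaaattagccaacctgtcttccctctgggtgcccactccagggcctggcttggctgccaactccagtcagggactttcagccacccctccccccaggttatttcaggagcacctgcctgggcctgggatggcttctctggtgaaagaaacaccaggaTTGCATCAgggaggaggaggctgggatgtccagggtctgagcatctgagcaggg
ATF3: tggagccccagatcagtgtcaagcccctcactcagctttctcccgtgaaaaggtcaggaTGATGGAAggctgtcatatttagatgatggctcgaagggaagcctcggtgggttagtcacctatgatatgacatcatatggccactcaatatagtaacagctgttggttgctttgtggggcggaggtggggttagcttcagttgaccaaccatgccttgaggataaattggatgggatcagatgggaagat
HERPUD1: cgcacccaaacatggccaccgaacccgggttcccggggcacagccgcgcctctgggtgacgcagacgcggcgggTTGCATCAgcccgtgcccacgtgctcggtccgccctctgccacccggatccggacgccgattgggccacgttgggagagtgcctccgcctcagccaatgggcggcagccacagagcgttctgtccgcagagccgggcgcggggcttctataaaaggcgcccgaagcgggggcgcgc

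Most amino acid enzymes of the list fell, but SHMT2, a serine and folate enzyme, and CBS, which makes cystathionine, did not pass against replicates 1 and 2 (-0.08 and -0.06; edgeR adjusted p = 0.13 and 0.31). ASNS, which makes asparagine, was 138 and 133 CPM in Block9del and 755, 729.7, 811 and 785 in empty vector (log2 fold change -2.51 ± 0.0586, edgeR adjusted p = 3.5e-16). Both Block9del libraries were far below all 4 controls, and ASNS was 404 and 377 CPM in ARID1B WT. PHGDH and PSAT1, enzymes of serine synthesis, were 225 and 224 against 549, 517, 629 and 662 CPM and 195 and 191 against 565, 582, 504 and 504 CPM. The mitochondrial folate enzyme MTHFD2 was 196 and 195 against 515, 486, 604 and 612 CPM. ALDH1L2, another mitochondrial folate enzyme, was 48.9 and 48.7 against 199, 217, 212 and 207 CPM, a change of -2.10 ± 0.0885. In ASNS, PHGDH, PSAT1, MTHFD2 and ALDH1L2, the highest Block9del library was below the lowest control, as in 21.9% of all genes. The amino acid carriers SLC7A11 (cystine), SLC7A5 (leucine) and SLC7A1 (arginine) fell by 2.97, 1.67 and 1.26 on the log2 scale. ASS1, the arginine-making enzyme and no member of the list, was 25.7 and 25.9 CPM against 190.1, 193, 152 and 160.3 (log2 fold change -2.75 ± 0.0893, edgeR adjusted p = 3.2e-14), and 173 and 182 CPM in ARID1B WT. ASS1 was close to the Block9del level in 42YS, at 26.3 and 28.4 CPM.

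Regulators and stress outputs of the pathway were also among the fallers. ATF4 itself was 253 and 256 CPM in Block9del and 446, 443, 688 and 663 in empty vector (-1.13 ± 0.139). Its targets NUPR1, a stress-induced chromatin protein, and CHAC1, which degrades glutathione, were 9.07 and 10.6 against 78.6, 75.6, 77.4 and 78.7 CPM and 8.76 and 9.73 against 72.3, 74.4, 56.7 and 59.8 CPM. The 4 controls lay close together for NUPR1. TRIB3, a pseudokinase that curbs ATF4, was 26.0 and 28.6 CPM in Block9del, but 397, 379, 94.2 and 85.8 in empty vector, so its size depended on the pair (-3.83 against replicates 1 and 2, -1.72 against 3 and 4). The hormone FGF21 had 1 read in the Block9del libraries together and 209 in empty vector, a level 132 times lower (95% counting interval 23.4 to 5221). DDIT3, which encodes the pro-death factor CHOP, was 18.0 and 17.3 against 40.1, 43.9, 34.8 and 36.2 CPM. SESN2, a leucine sensor, and CEBPB, a partner of ATF4, fell by 1.84 and 1.24. Of the endoplasmic reticulum genes, the stress factor XBP1 changed by -1.06, HERPUD1, which serves protein degradation there, by -1.06 and the chaperone HSPA5 by -0.69, the last at 1659 and 1572 against 2300.0, 2124, 2923 and 3057 CPM.

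**Figure D2:**
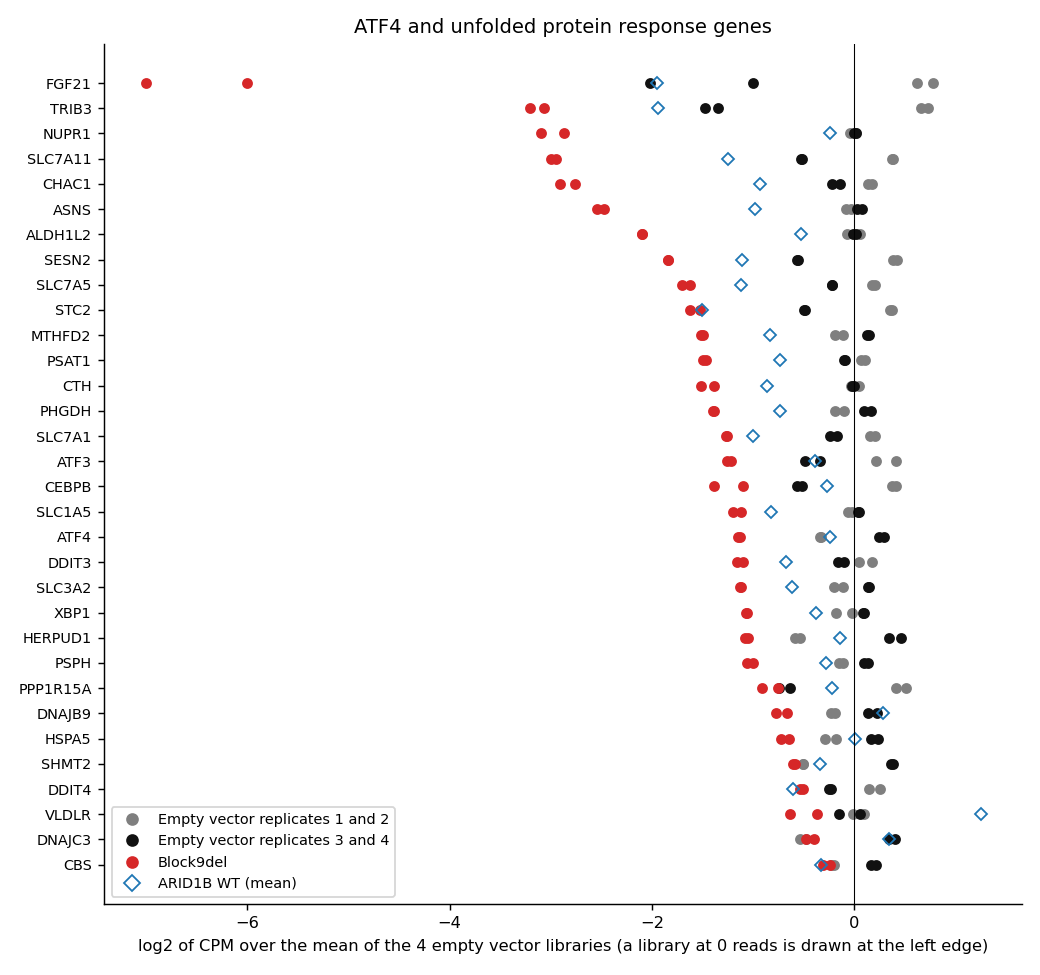
Each row is 1 of the 32 tested ATF4 and unfolded protein response genes; the axis is log2 of a library's CPM over the mean of the 4 empty vector libraries, with points for libraries and open diamonds for the mean of ARID1B WT. Block9del (red) lies left of all 4 empty vector libraries in every row but that of DNAJC3, with FGF21 at the top. Of all genes tested, 21.9% had both Block9del libraries below all 4.

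The list was also lower in Block9del than in AQGscram and 42YS, groups of like strand profile, comparisons added after the data were seen. Against AQGscram, 26 of 32 members were lower, where 8.84% of genes were lower and 8.05% higher (edgeR). Against 42YS, 21 were lower, where 7.49% were lower and 6.27% higher. ASNS stood at 565 and 586 CPM in AQGscram and 336 and 336 in 42YS. Against ARID1B WT, whose libraries have the strand profile of empty vector replicates 3 and 4, 25 members were lower, where 24.4% of genes were lower and 22.7% higher. The other ARID1B deletions did not follow WT: ASNS was 129.6 and 133 CPM in Block13del and 108 and 107 in A457_G461del. Against A457_G461del, 11 members were higher and 1 lower in Block9del, where 4.39% of genes were higher and 8.20% lower. These comparisons share the Block9del libraries.

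The 12 largest falls were taken by size among genes whose mean level over all libraries reached 1 on the log2 CPM scale, which leaves out FGF21, and with both Block9del libraries beyond all 4 controls. INHBE, an activin chain, was 0.543 and 0.391 CPM against 17.5, 15.6, 6.87 and 6.13 (-4.62 ± 0.455, edgeR adjusted p = 4.5e-07). SLC6A9, a glycine transporter, was 6.43 and 6.78 against 84.1, 84.0, 55.9 and 49.4 CPM, and ADM2, a peptide hormone, was 5.78 and 5.95 against 56.1, 58.4, 39.0 and 36.1. AKNA, an AT-hook protein, was 11 and 10.8 against 142, 148, 74.8 and 81.8 CPM. Each of these had every control above both Block9del libraries by a wide margin. GDF15, a stress cytokine, LAMP3, a lysosomal membrane protein, and UNC5B, a netrin receptor, differed most from replicates 1 and 2: GDF15 was 6.01 and 6.39 CPM against 149, 147, 18.4 and 15.4, LAMP3 2.71 and 2.52 against 37.1, 42.2, 8.76 and 6.97, and UNC5B 22.8 and 25.2 against 338, 332, 45.3 and 41.5. Against replicates 3 and 4 their log2 fold changes were -1.44, -1.57 and -0.86. With only the 6 libraries in the fit, these 3 genes were not called against the 4 controls (edgeR adjusted p = 0.12, 0.098 and 0.15). TRIB3, SLC7A11, CHAC1, NUPR1 and ASS1 make up the rest of the 12. GDF15 and UNC5B were not called against AQGscram or 42YS, whereas SLC6A9 and ADM2 were lower than in both.

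The 12 largest rises were taken by the same rule. They were transcripts close to 0 in empty vector, higher with Block9del, and higher again with ARID1B WT. The level in WT is not independent of that rule. A gene low in both compared groups passes the floor on the mean over all libraries only where other constructs are high. DCX, a microtubule protein of migrating neurons, had no read in any empty vector library and 1.36 and 1.74 CPM in Block9del, at least 39.7-fold higher taking 3 reads over the control group as the limit, and 14 and 13.8 CPM in WT. FOXP2, a forkhead factor, had 1 control read and 42 in Block9del (0.659 and 1.09 CPM), 66.7 times the control level (95% counting interval 11.3 to 2697), and 9.94 and 17 CPM in WT. VSTM2L, a secreted immunoglobulin-domain protein, had 2 control reads and 1.24 and 1.52 CPM in Block9del, 53.2 times the control level (14.2 to 448), against 53.9 and 61.3 CPM in WT. COL16A1, a fibril-associated collagen, had 1 control read and 0.271 and 0.521 CPM in Block9del, against 27.9 and 27.7 in WT.

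MMP2, the gelatinase that digests basement membrane, was 2.48 and 3.09 CPM in Block9del, 0.0907, 0.180, 0.131 and 0.0557 in empty vector and 224 and 229.9 in WT. Its log2 fold change was 4.51 ± 0.301 over empty vector (edgeR adjusted p = 1.7e-09) and -6.35 ± 0.159 against WT. ADORA1, the adenosine A1 receptor, was 2.33 and 3.39 CPM against 0.0907, 0.225, 0.196 and 0.111, and TGM2, a protein cross-linking enzyme, 6.82 and 7.73 against 0.680, 0.899, 0.196 and 0.334. ELN, elastin, was 0.969 and 0.608 CPM against 0.0907, 0.0899, 0.131 and 0.279 in empty vector and 431 and 451 in WT. In each case the Block9del libraries were above all controls, as the naming rule required. They were also below both WT libraries, a pattern that the floor on the mean favours. C15orf52, TMC3 (a channel-like protein), ATP8B1 (a phospholipid flippase) and NEDD9 (a focal adhesion scaffold) complete the 12, with log2 fold changes of 3.45, 3.29, 3.20 and 2.14. With strand ignored the value of ATP8B1 was 1.22. AQGscram reached 6.16 and 6.24 CPM of TGM2 and 0.272 and 0.596 of COL16A1, and Block9del was not called higher than AQGscram for these (edgeR adjusted p = 0.32 and 0.83).

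**Figure D3:**
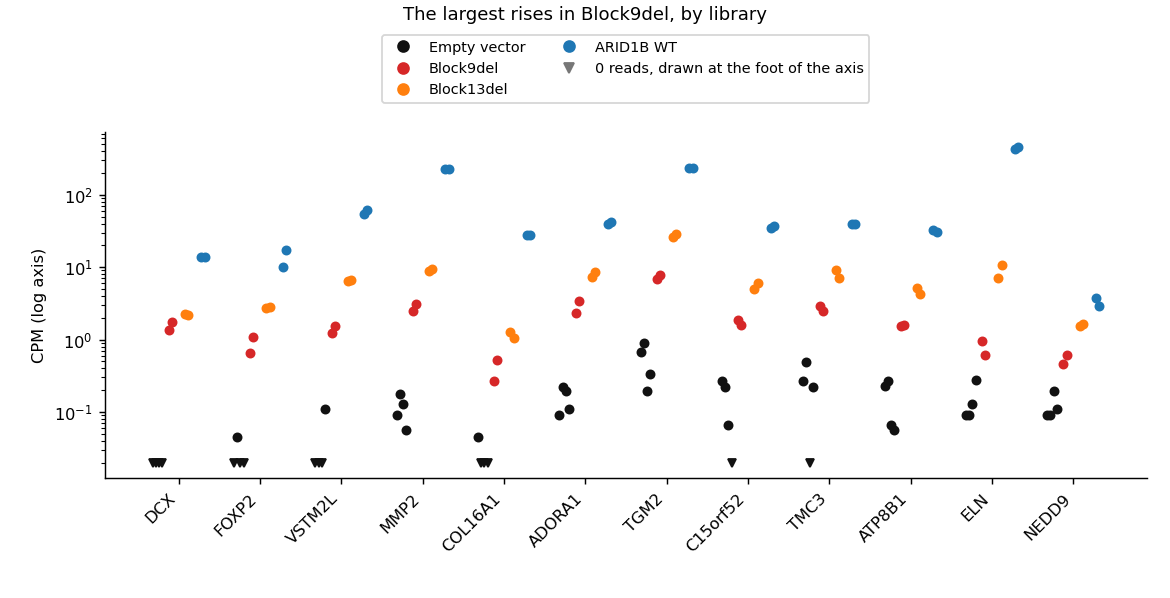
CPM on a log axis of the 12 genes with the largest rises in Block9del by the naming rule, with a point for each library of empty vector, Block9del, Block13del and ARID1B WT; triangles mark libraries with 0 reads. For each gene the Block9del points lie above the empty vector points, as the rule required, and below those of Block13del and ARID1B WT. The rule's floor on the mean level over all libraries favours genes that are high in other constructs.

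Matrix and adhesion genes as groups split. Of 24 tested matrix glycoprotein and remodelling genes, 6 rose and 5 fell, where 12.8% and 12.4% of all genes did. The median was -0.32 against the 4 empty vector libraries and -0.31 against replicates 1 and 2, but 0.30 against replicates 3 and 4. Against ARID1B WT, 19 were lower and 3 higher (median -2.39), where 24.4% and 22.7% of genes were. SPARC, a collagen-binding glycoprotein, rose from 31.3, 30.2, 42.5 and 39.6 CPM to 65.8 and 67.8, against 337 and 329.5 in WT. FN1, fibronectin, fell from 88.6, 91.2, 89.4 and 83.1 to 49.9 and 49.4 CPM, and at 24.8 and 25.2 CPM was lower still in WT. Of 24 collagens, 3 rose and 2 fell, and 16 were lower than with WT; COL6A2 (-1.22) and COL18A1 (-0.78) were the fallers. COL1A1 was 1.09 and 0.999 CPM against 0.816, 0.629, 1.18 and 0.390, with overlapping groups (edgeR adjusted p = 0.16).

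LAMB1, a basement membrane laminin chain, was 19.9 and 20.6 CPM in Block9del, 8.25, 8.32, 7.59 and 8.19 in empty vector, 31.4 and 30.7 in Block13del and 158 and 161 in WT (log2 fold change over empty vector 1.32 ± 0.0706, edgeR adjusted p = 6.1e-11). LAMB2 and LAMC3, the other called laminins of 8, fell by 0.47 and 0.67. Among 15 integrins, the laminin receptor chain ITGA6 and the vitronectin receptor chain ITGB5 rose by 0.52 and 0.62, and ITGA3 fell by 0.94. Over all genes 12.8% rose and 12.4% fell, beside 1 and 2 of 8 laminins and 2 and 1 of 15 integrins. ITGA5, the fibronectin receptor chain, was 0.543 and 0.174 CPM against 0.453, 0.539, 0.850 and 0.948 and was not called (edgeR adjusted p = 0.056), though it was called lower under 7 alternatives, among them strand ignored (adjusted p = 0.040) and replicates 3 and 4 alone (adjusted p = 0.0083). CD44, the hyaluronan receptor, had 2 reads in Block9del, 1 in empty vector and 596 in WT. RUNX2, a bone and matrix transcription factor, had 4 reads in Block9del, none in empty vector and 365 in WT. Of 24 TEAD and YAP target genes, none was higher than in the 4 empty vector libraries by edgeR (1 at an unadjusted p under 0.05, and 1 by DESeq2) and 3 fell, near the 12.4% of all genes. Against replicates 1 and 2, 1 was higher and 12 lower, where 30.5% and 33.3% of all genes were. Against replicates 3 and 4, 6 were higher and 4 lower, where 20.5% and 22.1% were. The medians were -0.38 and 0.05. Against WT, 18 were lower, where 24.4% of all genes were. The fallers were ARHGEF17 (-0.48), CRIM1 (-0.56) and FOXF2 (-0.89).

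The genes with the largest excess over ARID1B WT were expressed in empty vector too, and none was called higher in Block9del against both pairs. MAGEC2, a cancer-testis antigen, was 3.10 and 3.26 CPM in Block9del, 5.62, 6.02, 1.96 and 1.95 in empty vector and 0.110 and 0.0944 in WT. Its neighbour MAGEC1 was 4.88 and 5.43, 8.39, 6.52, 2.62 and 3.29 and 0.494 and 0.519 CPM. For both, Block9del lay between the empty vector pairs. DKK1, a secreted WNT inhibitor, was 5.08 and 5.04 CPM against 7.57, 7.19, 7.26 and 8.36, a fall of 0.59 on the log2 scale, with 0.769 and 0.614 CPM in WT. PRLR, the prolactin receptor, was 4.65 and 4.22 CPM against 13.6, 14.5, 5.56 and 4.91 and had 1 read in the WT libraries together. FXYD6, a regulator of the sodium pump, was 3.76 and 4.0 CPM against 3.31, 2.70, 4.05 and 3.46, with 0.659 and 0.519 in WT. GRB10, an adaptor that restrains insulin and IGF signalling, did fall: it was 2.98 and 2.78 CPM against 12.9, 12.6, 6.80 and 6.91 (-1.78 ± 0.233, edgeR adjusted p = 1.2e-05), with 1.32 and 1.27 in WT.

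DNA replication and mitosis genes were the most uniformly raised. The origin licensing helicase (MCM genes), its loaders and the polymerases are made at the start of S phase under E2F factors, and the mitotic kinases and spindle genes later. Of 29 tested replication genes 26 rose, and of 28 mitosis genes 24 rose, where 12.8% of genes did; none fell (edgeR, also at an unadjusted p under 0.05 and by DESeq2 against the 4 libraries). The median log2 fold changes were 0.70 and 0.59. They were 1.28 and 0.90 against empty vector replicates 1 and 2, but 0.36 and 0.31 against replicates 3 and 4, and the empty vector pairs themselves differed by 0.87 and 0.56. With only the 6 libraries in the fit, 1 replication gene and 2 mitosis genes were called against the 4 empty vector libraries, and 27 and 24 against both pairs.

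The E2F letters TTTGGCGC or TTTCCCGC, searched on both strands of the same 250-base windows, occurred in 12 of 25 replication genes with an entry (48.0%), in 1 of 22 mitosis genes and in 1.96% of all genes. PCNA (chr20:5126623-5126872, minus strand), GINS2 (chr16:85688955-85689204, minus strand) and MCM6 (chr2:135876444-135876693, minus strand) are shown as examples of the replication genes that rose, with the matches in capitals; that nearest the start lies 59, 31 and 90 bases before it.
PCNA: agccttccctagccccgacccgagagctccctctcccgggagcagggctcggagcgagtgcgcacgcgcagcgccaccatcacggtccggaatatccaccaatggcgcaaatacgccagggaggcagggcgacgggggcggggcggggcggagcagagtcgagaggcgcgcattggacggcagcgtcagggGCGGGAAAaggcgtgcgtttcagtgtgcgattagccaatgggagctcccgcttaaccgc
GINS2: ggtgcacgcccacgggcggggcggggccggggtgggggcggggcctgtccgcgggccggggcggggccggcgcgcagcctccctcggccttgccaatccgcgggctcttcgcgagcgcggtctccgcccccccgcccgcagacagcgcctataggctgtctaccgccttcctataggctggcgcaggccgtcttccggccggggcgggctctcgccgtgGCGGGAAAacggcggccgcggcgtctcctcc
MCM6: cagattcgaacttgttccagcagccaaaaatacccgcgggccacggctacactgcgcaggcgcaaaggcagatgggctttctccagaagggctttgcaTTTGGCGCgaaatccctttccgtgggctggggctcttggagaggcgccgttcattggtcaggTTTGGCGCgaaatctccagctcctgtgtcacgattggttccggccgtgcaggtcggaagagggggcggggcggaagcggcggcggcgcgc

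PCNA, the sliding clamp, was 205 and 205 CPM in Block9del and 81.2, 75.5, 159 and 168 in empty vector, so both pairs were below Block9del and replicates 1 and 2 by much more. GINS2, a helicase subunit, showed the same spread, at 53.5 and 50.4 against 14.6, 13.4, 33.0 and 40.1 CPM, as did MCM6 at 243 and 233 against 97.3, 91.8, 170.2 and 171. FEN1, the flap nuclease of lagging-strand synthesis, was 96.4 and 98.4 against 46.7, 42.5, 63.2 and 66.6 CPM (0.84 ± 0.119, edgeR adjusted p = 3e-05). CDK1, the mitotic kinase, differed little between the pairs: it was 149.8 and 147 CPM against 95.3, 89.0, 94.0 and 88.7 (0.69 ± 0.0565, edgeR adjusted p = 3.3e-08), and 67.6 and 63.2 in WT. The checkpoint gene MAD2L1 and the cytokinesis gene ANLN rose by 0.78 and 0.77. CDC6 and CDT1, which load the helicase, were not called the same way against both pairs. CDC6 was 122 and 117 CPM, above 35.0 and 33.2 in replicates 1 and 2 and below 131 and 131 in replicates 3 and 4.

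Against ARID1B WT, 26 replication and 27 mitosis genes were higher in Block9del, where 22.7% of genes were. Against AQGscram, 1 of 29 replication and 6 of 28 mitosis genes were higher, where 8.05% of genes were. Against 42YS, 2 of 29 and 2 of 28 were, where 6.27% were. The summed level of the 29 replication genes was 4183 and 4134 CPM in Block9del, 1896 and 1845 in empty vector replicates 1 and 2, and 3283 and 3335 in replicates 3 and 4. It was 3450 and 3482 CPM in AQGscram, 3390 and 3376 in 42YS, 3937 and 3955 in Block13del and 1910 and 1907 in WT.

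**Figure D4:**
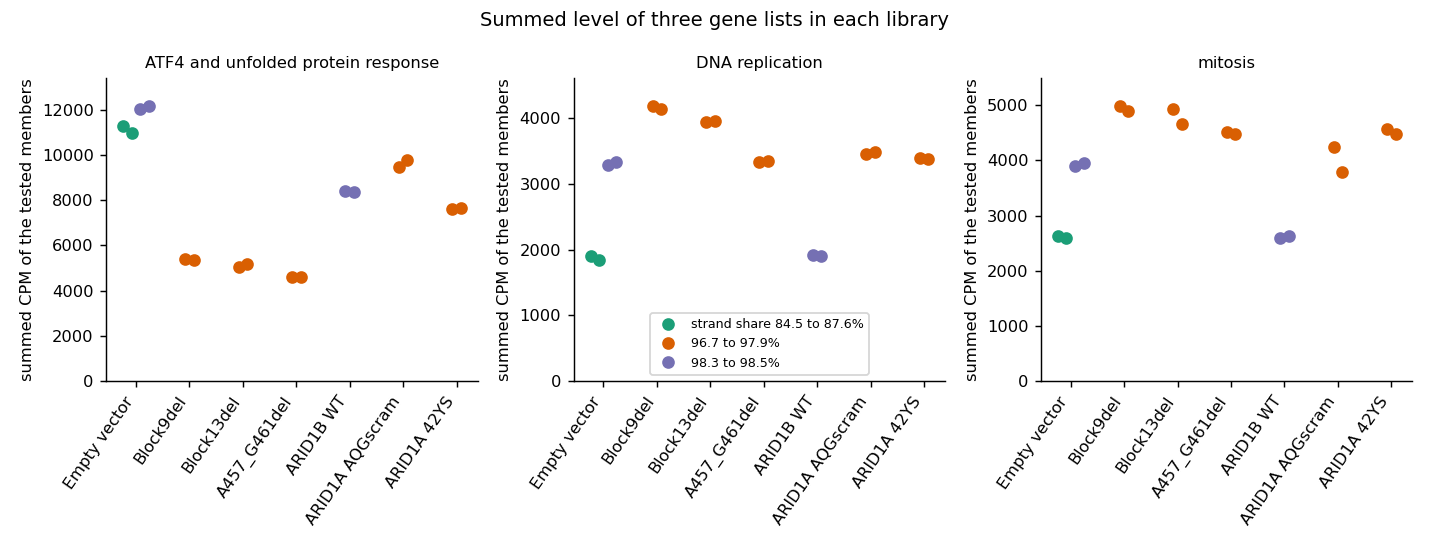
Summed CPM of the tested members of the stress, replication and mitosis lists in each library of 7 groups, coloured by the share of reads on the counted strand. For the stress list, Block9del (5404 and 5354 CPM) is below every empty vector, ARID1B WT, AQGscram and 42YS library; for replication, the empty vector pairs lie apart from each other.

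Of 18 heat shock and proteostasis genes 9 rose, where 12.8% of genes did, and 1 was lower than in the 4 empty vector libraries but not against both pairs, with a median of 0.33. HSP90AA1, the inducible cytosolic HSP90, was 2513 and 2404 CPM against 1320.0, 1206, 1481 and 1552 (0.82 ± 0.0751, edgeR adjusted p = 1.6e-07). HSPE1, the mitochondrial co-chaperonin, was 108 and 94.4 against 41.5, 43.5, 51.9 and 58.6 CPM (1.05 ± 0.105). The HSP110 family member HSPA4 rose by 0.35. Here 10 members were higher than in AQGscram, where 8.05% of genes were, and 9 higher than in 42YS, where 6.27% were.

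Of 25 autophagy and lysosome genes 13 fell and 2 rose (median -0.35), where 12.4% and 12.8% of genes did. Against the separate empty vector pairs, in the order used above, the medians were -0.45 and -0.13. Of the 25, 18 were lower than with WT, where 24.4% of genes were. Against AQGscram, 6 were lower and 1 higher (median -0.07), where 8.84% and 8.05% of genes were. Against 42YS, 2 were lower and 1 higher (median -0.02), where 7.49% and 6.27% were. WIPI1, which helps form autophagosomes, was 16.2 and 18.6 CPM against 39.7, 44.2, 53.7 and 49.9 (-1.43 ± 0.112, edgeR adjusted p = 1.9e-08). The lysosomal protease CTSD fell by 0.68. Of 19 targets of NRF2, the oxidative stress factor, 6 fell and 1 rose, though the list's median was -0.01. The ferritin chains FTL and FTH1, which store iron, were 541 and 556 against 925, 872, 983 and 925 CPM and 720.5 and 732 against 1570.0, 1564, 1127 and 1131 CPM. NQO1, a quinone reductase, was 186 and 180.5 against 400.0, 396, 286 and 285, and HMOX1, which degrades haem, 30.6 and 30.6 against 54.6, 55.1, 43.4 and 42.0. Of these, NQO1 and HMOX1 were within 0.18 log2 units of AQGscram and were not called against it. SLC7A11, on this list too, is described with the stress genes.

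Members of other lists were also called against both pairs, where 12.8% of all genes rose and 12.4% fell. In the IGF and insulin axis 6 of 14 fell (median -0.63), among them IGFBP6, an IGF-II binding protein (-0.96), and IGF1R, the receptor, at a low 0.116 and 0.217 CPM against 1.09, 0.764, 0.654 and 0.502. Of 11 MHC class I and processing genes 4 fell, with the trimming peptidase ERAP1 at -0.79, the chaperone CANX at -0.32 and HLA-C, whose reads can be shared with its close homologues, at -0.72. HOXB9 fell from 86.0, 85.7, 57.5 and 62.0 CPM to 30.2 and 31.8 (-1.24 ± 0.125, edgeR adjusted p = 6.2e-07), and its neighbours HOXB7 and HOXB8 by 2.21 and 1.46; with 3 of 29 HOX genes lower and 2 higher, both shares are below those of all genes, and the list's medians were 0.59 and -0.19 against the pairs. Of 25 polycomb genes 6 rose, EED (0.52) and PCGF6 (0.47) among them.

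Of 19 glycolysis genes 5 rose, where 12.8% of all genes did. None was lower than in the 4 empty vector libraries by edgeR (1 at an unadjusted p under 0.05, 0 by DESeq2). Against replicates 1 and 2, 15 were higher and 2 lower (median 0.55), where 30.5% and 33.3% of all genes were. Against replicates 3 and 4, 6 were higher and 4 lower (median -0.03), where 20.5% and 22.1% were. Among the risers were LDHA at 1382 and 1341 CPM against 485, 492, 954 and 928, PKM at 0.49 and ENO1 at 0.48. Of 24 hypoxia response genes 7 rose, such as ADM, adrenomedullin (0.88), and the collagen lysyl hydroxylase PLOD2 (0.65), and 4 fell, MXI1 (-0.69) among them. In the next 2 lists the shares that rose are below the 12.8% of all genes, and 12.4% of all genes fell. In the WNT list 3 of 31 rose, CTNNB1, beta-catenin, by 0.31, and 6 fell, including the co-receptor LRP5 (-0.38) and the repressor TCF7L1 (-0.38). In the axon guidance list 3 of 43 rose and 7 fell. SEMA3F rose from 39.1, 40.1, 36.2 and 35.0 to 51.6 and 54.9 CPM, with 198 and 192 in WT, while PLXNA1 and ROBO3 fell by 0.73 and 0.95.

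Some lists depended on which empty vector pair was used. Targets of p53 had a median of -0.67 against replicates 1 and 2 and 0.09 against replicates 3 and 4. Of 25 targets 4 fell against both, where 12.4% of all genes did. CDKN1A, the cell-cycle inhibitor p21, was 19.4 and 17.3 CPM, below 84.4 and 85.7 and above 11.1 and 9.76. Against AQGscram and 42YS it was not called. BBC3, the death gene PUMA, fell against both pairs (-2.52 and -1.22). Immediate early genes had medians of -0.93 and 0.17, and cytosolic ribosomal protein genes 0.15 and -0.58. Of 58 ribosomal genes 8 were lower against both, near the 12.4% of all genes. Cholesterol synthesis genes had medians of 0.62 and -0.41. HMGCS1, an early enzyme of that pathway, was 563 and 526 CPM in Block9del and 252, 244, 671 and 663 in empty vector. Between the empty vector pairs themselves, these 4 lists had medians of -0.83, -0.85, 0.77 and 1.03 in the order given.

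**Figure D5:**
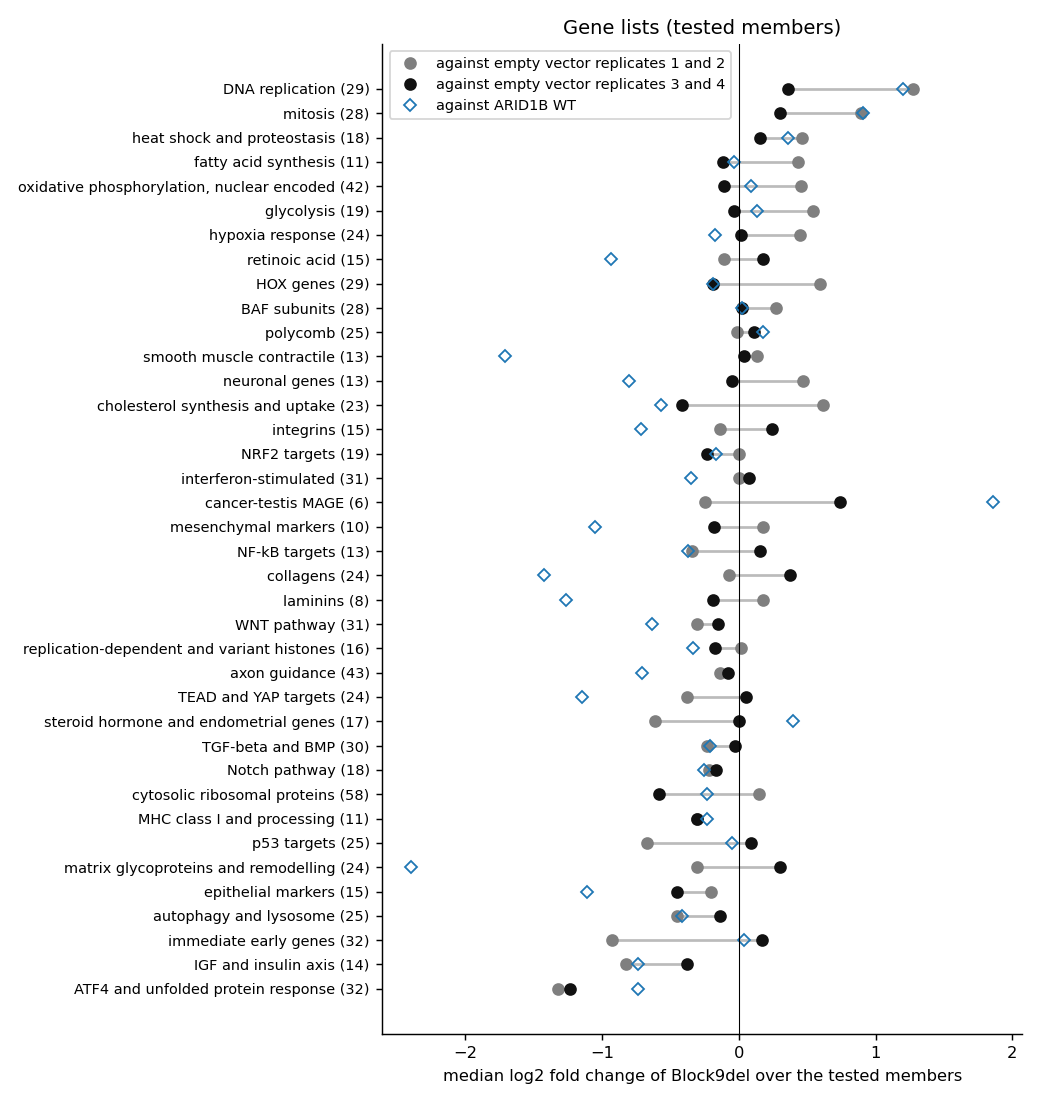
Median log2 fold change of Block9del over the tested members of each of 38 gene lists (number tested in brackets), against empty vector replicates 1 and 2 (grey), against replicates 3 and 4 (black) and against ARID1B WT (open diamonds). The stress list is near -1.32 and -1.23 against the pairs, and replication and mitosis are above 0 against both.

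Against ARID1B WT, 3233 genes were higher and 3466 lower in Block9del, and 519 and 1179 of these differed at least 2-fold. The 5 largest deficits were in genes almost silent in Block9del. ELN was -9.10 on the log2 scale. CD44 (369 times lower, 95% counting interval 102 to 3056) and EDN2, a vasoconstrictor peptide (343 times lower, 94.6 to 2841), had 2 reads each in Block9del. CACNG4, a calcium channel and AMPA receptor subunit, had 3 reads in Block9del and 758 in WT. SOST, the bone WNT inhibitor sclerostin, had no read in Block9del or in empty vector and 647 in WT, at least 267-fold lower. The largest excesses were in PRLR, MAGEC2, MAGEC1, DKK1 and FXYD6, given above. The WT libraries have the strand profile of empty vector replicates 3 and 4, not of Block9del, and with strand ignored the ELN value was -9.08 and the MAGEC2 value 4.88, beside 4.89.

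Against Block13del, another ARID1B deletion with a like strand profile, no gene was higher in Block9del (0% of genes by edgeR). At an unadjusted p under 0.05 the count was 121, and by DESeq2 it was 1. Lower in Block9del were 67 genes (0.471%), with 485 unadjusted and 81 by DESeq2. The median absolute log2 difference was 0.08. Among the lower genes were several that were highest with WT. ELN was 0.969 and 0.608 CPM in Block9del and 7.19 and 10.9 in Block13del (-3.50 ± 0.240, edgeR adjusted p = 4e-08), TGM2 6.82 and 7.73 and 26.3 and 28.8, and MMP2 2.48 and 3.09 and 8.86 and 9.46. EDN2 had 2 reads against 49 (27.7 times lower, 95% counting interval 7.27 to 235). ISLR, a secreted leucine-rich repeat protein, had 2 against 21, and SEMA5B, a semaphorin, 4 against 35. LAMB1 (-0.62), SPARC (-0.49) and ITGB5 (-0.54) were also lower. ARID1B itself was lower by 1.36 on this scale. In the stress list no member differed from Block13del, also at an unadjusted p under 0.05 or by DESeq2. ASNS gave 0.04 ± 0.0600 and CHAC1 0.27 ± 0.131 (SE).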

How the data were processed

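PolyA RNA-seq of AN3CA cells was analysed from the per-library read counts per gene that the authors deposited; the submitters' processing notes name bcl2fastq, STAR 2.5.2b, Bowtie2 2.29 and hg19, without giving their roles or the annotation. The count column of one strand was used (column 4 of the files) for 26346 genes in 28 libraries; reads assigned to no gene, 12.9 to 28.5% on this strand, stayed out of library sizes. Genes passing filterByExpr (14220) were fitted in edgeR 4.0.16 (R 4.3.3, quasi-likelihood, TMM) over all 28 libraries and 13 groups, or 14 groups with the empty vector pairs apart. p-values were Benjamini-Hochberg adjusted over all genes tested. CPM were scaled to TMM-adjusted totals of reads in the tested genes, and those of cell type markers to the plain total of reads in all genes. Intervals for few reads are exact at 95% and cover counting error only, as do limits taken as 3 reads.

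Groups came from the labels. The comparison and the gene lists were chosen with earlier results of these data known, and comparisons with A457_G461del, AQGscram and 42YS were added after the data were seen. Genes were named as the 12 largest changes each way that held against both empty vector pairs and with strand ignored, at an average log2 CPM of at least 1, with both Block9del libraries beyond all empty vector libraries and leaving out antisense, uncharacterised and hyphenated symbols, at most 3 members of a list with the smallest p, the BAF subunits, the largest differences from ARID1B WT and Block13del, and genes with large changes under other constructs; other named genes, chosen after their values were seen, are further list members. Some genes that the rule names are not reported here. Scripts were tested on simulated data. Alternatives were DESeq2 1.42.0, RLE size factors, other filters, strand ignored, a fit restricted to the compared libraries, either empty vector pair by itself, a replicate block and leaving out each library. Promoter letters are from RefSeq (GRCh38.p14).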

Additional observations from a re-analysis of the deposited data

Results flagged for a closer look

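Among the empty vector libraries, 1 library stood apart from the other 3 for 5 of the named genes, by the gap to its nearest neighbour as a share of the range (Dixon's 95% critical value for 4 libraries). Chance flags about 1 in 20 such groups. For CD44, COL16A1, FOXP2 and VSTM2L this share was 1, because a single library held the only reads, at 0.0557, 0.0453, 0.0450 and 0.111 CPM, and the others were at 0. For LAMB1 the share was 0.833: replicate 3 had 7.59 CPM and the others 8.19 to 8.32, all below both Block9del libraries.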

How the results depend on the processing

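The counts against the 4 empty vector libraries depended on the control libraries and on the libraries fitted. They were 415 higher and 423 lower with only the groups compared in the fit, 4323 and 4708 against replicates 1 and 2 alone, and 3857 higher against the mean of the pairs. Leaving out each library in turn gave 1508 to 2990 higher and 1541 to 3693 lower, the lowest without Block9del replicate 1 (1508 and 1541) and next without replicate 2 (1673 and 1871). Counts against both pairs and against ARID1B WT stayed within 1.5 times of the values given. Against Block13del, DESeq2 gave 1 gene higher, and leaving out each library gave 30 to 39 lower. With replicate number as a block, counts were 4326 and 4731 against empty vector. They were 4284 and 4496 against ARID1B WT, and 5 and 153 against Block13del. No other group has numbers 3 and 4, so the empty vector contrast of this fit rests on replicates 1 and 2. It is not a separate check from the fit to replicates 1 and 2 alone. Pairing by number has no basis in the labels. Block9del and empty vector libraries of the same number had deviations that correlated at -0.051. No block could be fitted for each pair, since numbers 3 and 4 belong to 1 pair. Of 131 genes named, 109 were called against the 4 empty vector libraries, and 64 of these had the same direction and call under every alternative run. Signs changed for ACTA2 (0.098), CDC6 (-0.12), CDKN1A (0.84), HMGCS1 (-0.28), MAGEC1 (0.80) and MAGEC2 (0.71) against replicates 3 and 4 alone, and for CDT1 against replicates 1 and 2 alone (0.57) and with the block (0.57). SEMA5B, with 4 reads in Block9del and none in empty vector, had a log2 fold change of 0 without Block9del replicate 1 and 4.85 without replicate 2. Why the empty vector pairs differ was not tested. At a few reads per gene, as for CD44, EDN2 and SOST, depth limits what can be compared.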
